A study of Mus musculus with 7 samples.

Results

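Siglecf-positive neutrophils of the infarcted mouse heart were defined in a pool of CD11b+ heart cells as cells that carried at least 200 UMIs (unique molecular identifiers, counted transcripts or antibody tags) of the Ly6G antibody and at least 1 UMI of Siglecf RNA. The members were thus chosen by a measured antibody count and a measured RNA count, which are not tested here. Barcodes first had to show 200 genes or more with no more than 10% of UMIs from mitochondrial genes, and the leading hashtag had to reach 10 UMIs and 3 times the next one. The rule found 597 Siglecf-positive cells among 1550 Ly6G antibody cells, 4416 cells with a single hashtag and 5862 barcodes of the pool. The mice were C57BL6/J, with no transgene named in the labels, labelled male for the pool of CD11b+ heart cells and the CD45+ libraries and without a stated sex for the blood and heart pool. All members came from infarcted hearts. Hashtag 1 held day 1 (5 mice), Hashtag 2 day 3 (5 mice) and Hashtag 3 day 5 (3 mice). Mice were pooled within a day, and cells labelled by an intravenous CD45.2 antibody, which marks cells in the blood, were excluded in the sort. The members came to 19 cells on day 1, 463 on day 3 and 115 on day 5, and the Siglecf-0 cells to 237, 540 and 176. The libraries the rule did not use were CD45+ heart leukocytes at steady state and days 1, 3, 5 and 7, and a second hashed pool, of CD11b+ cells from the blood and hearts of unoperated, sham-operated and infarcted mice, whose 7 hashtags were not assigned to conditions here. Infarction in the blood and heart pool was by permanent coronary ligation.

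Siglec-F, encoded by Siglecf, is a sialic acid-binding receptor of the CD33-related Siglec family with an inhibitory cytoplasmic motif. It is best known as a surface marker of mouse eosinophils and alveolar macrophages, and neutrophils that carry it have been described in tumours and injured tissues. The gene lies at chr7:43351341-43359531 on the plus strand (GRCm38, GENCODE M21).

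The label was checked against marker genes. All 12 neutrophil identity genes were detected in the members on each day, and their summed level was 65621 CPM (a share of the summed UMIs, scaled as the usual counts-per-million unit) on day 1, 27781 on day 3 and 19288 on day 5, against 3227, 1740 and 799 in the cells of the same days with less Ly6G antibody. The eosinophil granule genes Prg2, Epx, Ear1 and Ear6 had 0 UMIs in the members on every day. The other genes of the 8-gene eosinophil list were detected: on day 3 Ccr3 had 28 UMIs in 18 members (8.10 CPM against 2.35 CPM in Siglecf-0 cells), Ear2 had 71 UMIs (20.5 CPM, against 122 UMIs in the Siglecf-0 cells) and Il5ra had 1, and Cebpe stood at 11.6 and 9.57 CPM on day 3 and 12.6 and 3.75 CPM on day 5. The list summed to 31.0 and 25.2 CPM in members and Siglecf-0 cells on day 1, 40.5 and 33.9 CPM on day 3 and 13.2 and 9.90 CPM on day 5. At least 2 eosinophil genes were detected in 1 member, on day 3. The basophil and mast cell list summed to at most 0.29 CPM in the members and the lymphoid list to at most 2.89 CPM. The monocyte list was higher, at 1377, 1678 and 1291 CPM in members on days 1, 3 and 5, against 1600, 1682 and 1481 CPM in Siglecf-0 cells. The dendritic cell list summed to 993, 485 and 2058 CPM in members and 611, 1205 and 2122 CPM in Siglecf-0 cells.

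Macrophage RNA was present in part of the Ly6G antibody cells. An RNA rule, which asked for at least 3 neutrophil identity genes and more UMIs of that list than of a 12-gene macrophage list, was passed by 19 of 19 members on day 1, 431 of 463 on day 3 and 79 of 115 on day 5. Of the Siglecf-0 cells 229, 460 and 112 passed it. The members that failed had median totals of 28774 UMIs on day 3 and 29294 on day 5, against 4139 and 4723 in those that passed. The summed macrophage list stood at 5772 CPM in members and 11991 CPM in Siglecf-0 cells on day 3, and at 25758 and 25598 CPM on day 5. Within the RNA rule it stood at 1976 and 2271 CPM on day 3 and at 2205 and 4537 CPM on day 5. Results are therefore given both for all Ly6G antibody cells and for those that also passed the RNA rule, a restriction chosen after the data were seen. The RNA rule itself uses the 12 neutrophil and 12 macrophage genes, in both states alike.

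Siglecf-positive cells were rare among Ly6G antibody cells on day 1 and frequent later. They made up 7.42% of Ly6G antibody cells on day 1 (95% exact binomial interval 4.53% to 11.3%), 46.2% on day 3 (43.0% to 49.3%) and 39.5% on day 5 (33.9% to 45.4%). These intervals cover counting error only. The day 1 interval lay below those of days 3 and 5. Within cells passing both the antibody minimum and an RNA rule for neutrophils, described above, the shares were 7.66%, 48.4% and 41.4%. Each day was 1 pool of mice, so no test between days was possible. Median totals per Ly6G antibody cell were higher in members on each day, at 4967 UMIs against 4617 in Siglecf-0 cells on day 1. They were 4245 and 4034 on day 3, and 5516 and 4395 on day 5. Mean totals were 8482 and 6689 UMIs on day 1. The means were lower in members on day 3 (7463 and 10260) and day 5 (13815 and 16645). After thinning of each cell to 2000 UMIs, with 12, 16 and 8 shallower cells left out, the shares were 4.92%, 26.3% and 22.3%. The cells with less Ly6G antibody served as the background. They had a Siglecf UMI in 1.44%, 7.04% and 3.11% of cases at median depths of 19322, 24769 and 27034 UMIs. After thinning these shares were 0.394%, 3.28% and 1.03%. This background included neutrophils by RNA, as 65 of 277, 181 of 1207 and 58 of 1382 of its cells passed the RNA rule. By the RNA rule alone 20, 493 and 99 cells were Siglecf-positive on days 1, 3 and 5, against 19, 431 and 79 with both rules.

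**Figure D1:**
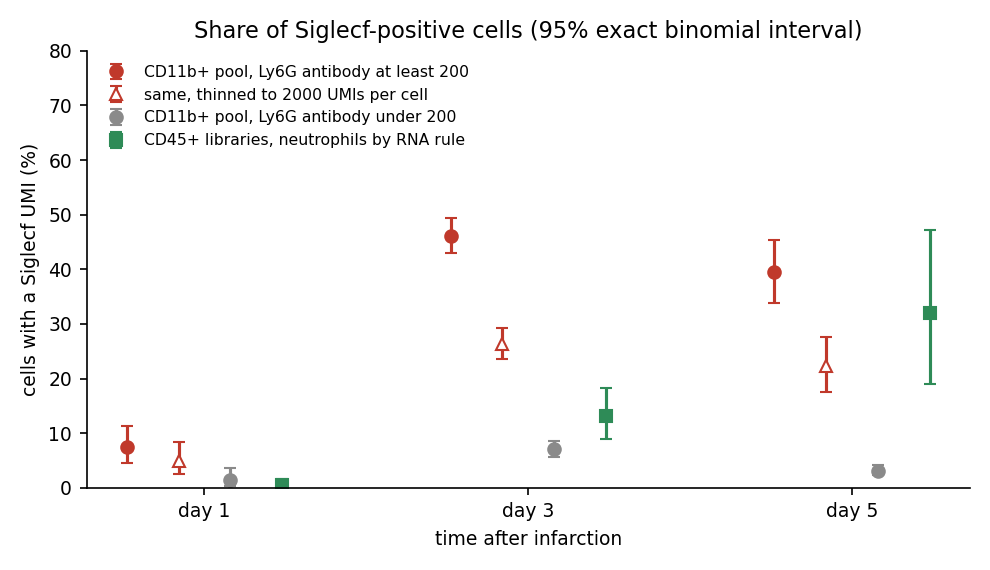
Percent of cells with a Siglecf UMI (y axis) on days 1, 3 and 5 (x axis), with 95% exact binomial intervals, for Ly6G antibody cells of the CD11b+ pool at full depth (filled circles) and at 2000 UMIs (triangles), for cells with less Ly6G antibody (grey) and for neutrophils of the CD45+ libraries by the RNA rule (squares). Ly6G antibody cells stand at 7.42%, 46.2% and 39.5%.

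The values at the threshold changed by steps. With 150 to 200 Ly6G antibody UMIs, just outside the rule, 48 of 422 cells had a Siglecf UMI (11.4%), and 132 of the 422 passed the RNA rule. With 200 to 250, just inside, 83 of 249 did (33.3%), and 180 passed the RNA rule. A single Siglecf UMI was the whole signal in 12 of 19 members on day 1, 237 of 463 on day 3 and 41 of 115 on day 5. The highest counts were 4, 10 and 9 UMIs. Cells called Siglecf-0 can therefore include expressing cells whose transcript was not captured.

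Siglecf-positive and Siglecf-0 neutrophils differed in a limited set of genes. Retnlg and Asprv1 were lower, and Gpr84, Ltc4s and Ptgs1 higher, both among all Ly6G antibody cells and in those passing both rules. UMIs were summed per day and state and fitted with edgeR's quasi-likelihood test with the day as a block. A day needed 20 cells in each state, so days 3 and 5 entered with 4 sums and 1 residual degree of freedom. Among all Ly6G antibody cells 245 of 9553 genes passed an adjusted p of 0.05 (2.56%), 140 higher (1.47%) and 105 lower (1.1%) in the members. Among cells that also passed the RNA rule 155 of 7446 passed (2.08%), 23 higher (0.309%) and 132 lower (1.77%). The 2 sets shared 27 genes, all in the same direction, 12 higher and 15 lower. With both rules DESeq2 called 13 genes, 0 of them higher, and edgeR called 3 higher and 59 lower when day 1 was added. Among all Ly6G antibody cells 0 genes passed without the day as a block by edgeR (638 at an unadjusted p under 0.05), DESeq2 with the block called 99, and 17 passed with day 1.

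Retnlg, which encodes a resistin-like secreted protein of neutrophils, was lower in the members on all 3 days. Its level in cells passing both rules was 354 CPM in members and 3745 CPM in Siglecf-0 cells on day 1, 103 and 488 CPM on day 3, and 261 and 1067 CPM on day 5. The fitted log2 change over days 3 and 5 was -2.27 ± 0.17 (SE; edgeR adjusted p = 4.3e-28), and -1.13 ± 0.14 among all Ly6G antibody cells (adjusted p = 0.023), where it stood at -1.85 with day 1 added (adjusted p = 0.10). At 2000 UMIs per cell the Retnlg change in cells passing both rules was -2.50 (adjusted p = 4.3e-10). In this and every later fit at 2000 UMIs per cell, the states were set again from the thinned Siglecf count. With both rules, members went from 431 to 259 on day 3 and from 79 to 58 on day 5. Siglecf-0 cells went from 460 to 619 and from 112 to 128. These fits thus changed the split and the size of the sums along with the depth. The effect of depth alone was not tested.

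The granule genes Mmp8 and Lcn2 and the secreted inhibitor gene Slpi fell in cells passing both rules. Mmp8, neutrophil collagenase, changed by -1.50 ± 0.28 log2 (adjusted p = 3.5e-05), with 22 and 57.5 CPM in members and Siglecf-0 cells on day 3 and 24.5 and 67.9 CPM on day 5. Slpi, which encodes a protease inhibitor, changed by -1.49 ± 0.17 (adjusted p = 1.2e-13) and stood at 618 and 1361 CPM on day 3 and 439 and 1392 CPM on day 5, but at 1799 and 1676 CPM on day 1. Lcn2, the iron-carrier-binding lipocalin, changed by -0.71 ± 0.17 (adjusted p = 0.0031). Of 7 measured specific granule genes 2 fell and 0 rose, with a median of -0.42 beside 0.01 over all genes tested. The 12 neutrophil identity genes had a similar median there, -0.45, with Retnlg and Clec4d lower and 1 of 12 above 0; that list is part of the RNA rule. Its median among all Ly6G antibody cells was 0.42, with Il1r2, Mmp9, G0s2 and Csf3r higher and Retnlg lower. Lcn2 lost its call with day 1 added (-0.60, adjusted p = 0.092). Among all Ly6G antibody cells the specific granule list had a median of 0.55 beside -0.0018, and 1 of 7 rose, Chil3. That Chil3 call reversed to -0.65 at 2000 UMIs per cell (adjusted p = 0.0039), and the macrophage RNA described above differed between the states in the same fit; its part in the result was not tested.

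Of the prostaglandin and leukotriene enzymes, Ltc4s and Ptgs1 rose in the members. Ltc4s, leukotriene C4 synthase, stood at 24.8 and 12.5 CPM in members and Siglecf-0 cells on day 1, 96.7 and 53.7 CPM on day 3 and 129 and 57.9 CPM on day 5 in cells passing both rules. Ptgs1, the constitutive cyclooxygenase, stood at 80.7 and 37.6 CPM, 174 and 105 CPM, and 198 and 91.9 CPM on the same days. Both were higher in members on all 3 days, although Ltc4s on day 1 rested on 4 UMIs in members and 17 in Siglecf-0 cells. Their log2 changes over days 3 and 5 were 0.85 ± 0.21 for Ltc4s (adjusted p = 0.0086) and 0.76 ± 0.19 for Ptgs1 (adjusted p = 0.0073), and 1.48 ± 0.21 and 1.27 ± 0.13 among all Ly6G antibody cells. Of the 7 measured genes of this list 4 rose among all Ly6G antibody cells, the other two being Alox5 and Ptgs2, and 2 rose in cells passing both rules. In the latter the list's median was 0.40. At 2000 UMIs per cell with both rules Ltc4s kept its call at 1.46 (edgeR adjusted p = 2.4e-04) and Ptgs1 did not, at 0.45 (adjusted p = 0.53); with day 1 added Ltc4s stood at 0.85 (adjusted p = 0.060). Cysltr1, a receptor for cysteinyl leukotrienes, rose in cells passing both rules by 0.82 ± 0.24 (adjusted p = 0.043) and stood at 0.51 ± 0.15 among all Ly6G antibody cells (adjusted p = 0.11).

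Gpr84, a receptor for medium-chain fatty acids that myeloid cells raise in inflammation, was higher on days 3 and 5. It stood at 521 and 310 CPM on day 3 and 609 and 266 CPM on day 5 in cells passing both rules, and at 199 and 173 CPM on day 1, where the scaled log2 difference was -0.10. Its log2 change was 0.83 ± 0.17 (adjusted p = 2.1e-04), and 1.56 ± 0.13 among all Ly6G antibody cells (adjusted p = 0.0053). In cells passing both rules the call was lost at 2000 UMIs per cell, at 0.42 (adjusted p = 0.41), and with day 1 added, at 0.62 (adjusted p = 0.17). The survival genes Bcl2a1d and Bcl2a1a rose by 0.70 ± 0.17 and 0.57 ± 0.17 in cells passing both rules (adjusted p = 0.0039 and 0.034). Both calls were lost at 2000 UMIs per cell, where they stood at 0.38 and 0.44 (adjusted p = 0.51 and 0.38), and with day 1 added, at 0.37 and -0.019. These copies are nearly identical, so reads may be split between them. On day 1 Bcl2a1a stood the other way, at 161 CPM in members and 503 CPM in Siglecf-0 cells. Of 13 measured survival and apoptosis genes 2 rose and 0 fell in cells passing both rules, and 3 of 14 rose among all Ly6G antibody cells.

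Calls among inflammatory genes depended on which cells were compared. Of 18 NF-kB pathway genes 6 rose among all Ly6G antibody cells, Tnfaip2, Traf1, Birc3, Nfkbid, Nfkbie and Tnfaip3, with a median of 0.51. In cells passing both rules 0 of 17 passed in either direction by edgeR, with a median of 0.15 and 12 of the 17 above 0. Over all genes 2.08% passed in that fit, so 0 calls in a list this short is near that share. Icam1, the adhesion ligand CD54, behaved alike, with 1.15 ± 0.12 among all Ly6G antibody cells (adjusted p = 0.014) and 0.44 ± 0.17 in cells passing both rules (adjusted p = 0.21). Tnf stood at 3947 and 2792 CPM on day 3 and at 1371 and 1171 CPM on day 5 in the latter. Of 19 cytokine and chemokine genes Il23a, Csf1, Tnf and Il1b rose and Il10 fell among all Ly6G antibody cells. In cells passing both rules Il10, Ccl6 and Osm fell among 18 and 0 rose. Of 13 other Siglec family and signalling genes Siglece, Fgr and Cd33 rose among all Ly6G antibody cells, and of 11 measured with both rules 0 passed by edgeR. Siglece, a related receptor, rose by 1.08 ± 0.14 among all Ly6G antibody cells and stood at 0.33 ± 0.19 in cells passing both rules (adjusted p = 0.61).

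Of 16 measured interferon-stimulated genes 5 fell in members that passed both rules, Rsad2, Cmpk2, Rtp4, Ifit1 and Slfn4, 11 did not pass and 0 rose, with a median of -0.49. At 2000 UMIs per cell 1 of the 5 kept its call, Rsad2 (-1.34, adjusted p = 1.3e-04), and the others lost it, among them Cmpk2 (adjusted p = 0.074), Rtp4 (0.44) and Ifit1 (0.68). Rsad2, an antiviral enzyme, stood at 223 and 925 CPM in members and Siglecf-0 cells on day 1, 234 and 390 CPM on day 3 and 109 and 557 CPM on day 5. Among all Ly6G antibody cells 0 of 17 passed in either direction by edgeR, beside 2.56% over all genes, with a median of -0.26. Asprv1, a retroviral-like protease gene, was lower on all 3 days, at 62.0 and 355 CPM, 161 and 395 CPM, and 116 and 551 CPM, with a log2 change of -1.77 ± 0.18 (adjusted p = 3.9e-17), and kept its call at 2000 UMIs per cell (-1.21, adjusted p = 2.1e-04). Plet1 and Col15a1, chosen after their values were seen, rose in cells passing both rules by 1.32 ± 0.38 and 1.18 ± 0.32 (adjusted p = 0.033 and 0.022). On day 5 they rested on 9 and 19 UMIs in members against 1 and 1, they kept the call at 2000 UMIs per cell (2.02 and 1.50), and they lost it with day 1 added (adjusted p = 0.32 and 0.15).

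The other lists held few calls. Of 18 lysosomal genes Ctsd, Gla, Lgmn and Ctsb fell in cells passing both rules, none of these 4 keeping its call at 2000 UMIs per cell, and Ctsl and Psap fell among all Ly6G antibody cells. The tRNA synthetase gene Eprs rose by 0.81 ± 0.21 in cells passing both rules (adjusted p = 0.0087), as 1 of 15 tRNA charging and stress response genes measured there, but not at 2000 UMIs per cell (0.77, adjusted p = 0.22) or with day 1 added (0.85, adjusted p = 0.060). Among all Ly6G antibody cells Chac1 rose as 1 of 17. Of 24 glycolysis and hypoxia genes 0 passed among all Ly6G antibody cells and of 23 measured with both rules 0 did by edgeR, as was the case for 12 and 10 genes of ribosome biogenesis and 8 and 6 sialyltransferase genes. Over all genes 2.56% and 2.08% passed in these fits, so 0 calls in lists this short is near those shares. Of 7 genes known to rise in ageing neutrophils Icam1 rose among all Ly6G antibody cells and 0 passed by edgeR in cells passing both rules. Cxcr4, a chemokine receptor on that list, stood at -0.34 ± 0.16 in cells passing both rules (adjusted p = 0.50). The heat shock gene Hspa1a, nearly identical to Hspa1b, changed by -1.89 ± 0.23 and stood at 36.7 and 63.1 CPM on day 3 and 29.0 and 352 CPM on day 5.

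Genes of other cells moved in the same comparisons. In cells passing both rules 6 of 12 macrophage genes fell in the members, C1qa, C1qb, C1qc, Ms4a7 and Pf4 among them. So did 3 of 3 measured dendritic cell genes, H2-Ab1, H2-Aa and Cd74, and the monocyte genes Ly6c2 and Ms4a4c. The summed dendritic cell list was lower in members on day 3 alone, at 285 CPM against 1281 CPM in Siglecf-0 cells. It stood at 297 and 272 CPM on day 5 and at 993 and 655 CPM on day 1. The log2 value of Cd74 was -2.11 on day 3 and -0.20 on day 5. The 12 macrophage genes are part of the RNA rule, so their calls come from cells selected partly by their own UMIs. At 2000 UMIs per cell 1 of these 6 macrophage genes and 0 of the 3 dendritic cell genes kept the call by edgeR, with C1qb going from -1.59 to -0.64 (adjusted p = 0.31), C1qc from -1.44 to -0.42 (0.74), H2-Ab1 from -1.86 to -0.29 (0.89) and Cd74 from -1.41 to -0.54 (0.38). Among all Ly6G antibody cells the genes with the lowest changes included Fabp4 (-2.20 ± 0.18), Gpnmb and Lpl, which are known from macrophages. In cells passing both rules Fabp4 stood at -0.46 ± 0.46 (adjusted p = 0.89) and Lpl at 0.07 ± 0.29 (adjusted p = 0.99). The part of these cells' RNA in the other differences was not tested.

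**Figure D2:**
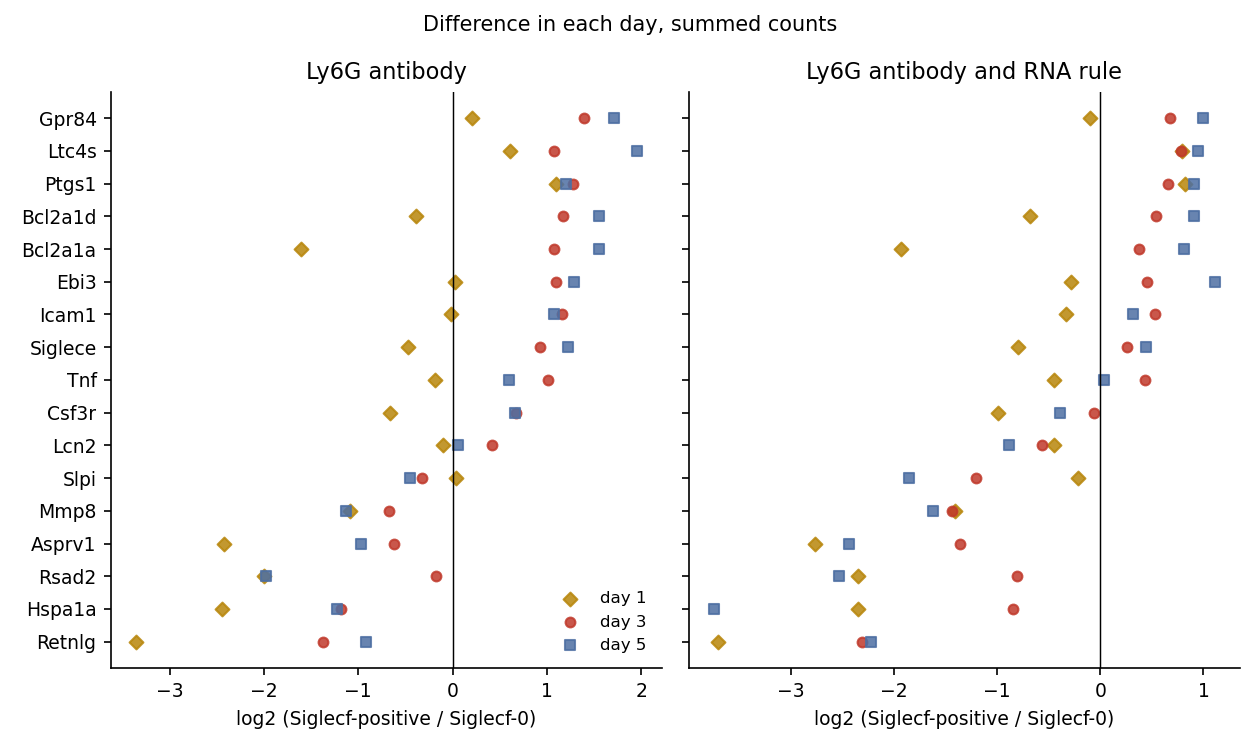
Log2 ratio of summed counts in Siglecf-positive over Siglecf-0 cells (x axis) for 17 genes (rows) on day 1 (diamonds), day 3 (circles) and day 5 (squares), among all Ly6G antibody cells (left) and those that also passed the RNA rule (right). Retnlg is left of 0 and Ptgs1 and Ltc4s are right of 0 on all 3 days in both panels, whereas Bcl2a1a is at -1.61 on day 1 and 1.08 and 1.55 on days 3 and 5 in the left panel.

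The level of Retnlg also differed by how many Siglecf UMIs a cell held. Retnlg and Icam1 were chosen for this description after their values were seen. The cells passed both rules, and Retnlg UMIs count toward the RNA rule. On day 3 Retnlg stood at 488 CPM in cells with 0 Siglecf UMIs, 130 CPM with 1, 114 CPM with 2 and 41.3 CPM with 3 or more, and on day 5 at 1067, 627, 313 and 27.6 CPM. Icam1 stood at 1020, 1549, 1433 and 1626 CPM on day 3 and 655, 1009, 913 and 898 CPM on day 5. Retnlg thus stepped down over all 4 classes on both days, and Icam1 differed mainly between 0 and 1 UMI. The class with 3 or more Siglecf UMIs rested on 25 Retnlg UMIs in 100 cells on day 3. On day 5 it rested on 6 in 34 cells. From the lowest to the highest class median totals went from 3840 to 4285 UMIs on day 3 and from 3704 to 5076.5 on day 5. The classes use the Siglecf count that defined the members, so they are a description only. The part of depth was not tested.

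**Figure D3:**
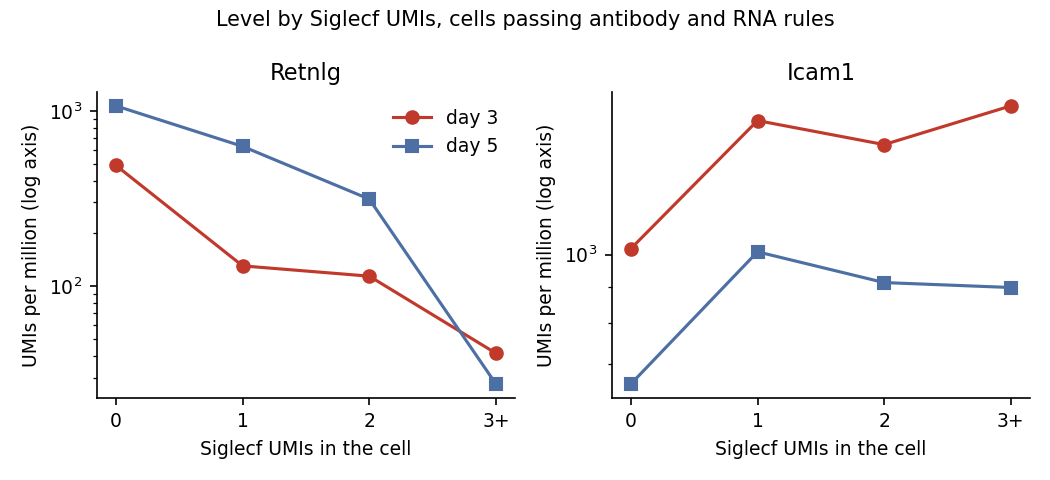
Summed level in CPM (y axis, log scale) of Retnlg and Icam1 by the number of Siglecf UMIs in the cell (x axis) on day 3 (circles) and day 5 (squares), in cells passing both rules. Retnlg goes from 488 to 41.3 CPM on day 3 and from 1067 to 27.6 CPM on day 5.

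Surface proteins measured in the pool differed little between the states. Median Ly6C antibody counts were 152 in members and 152 in Siglecf-0 cells on day 1, 125 and 122 on day 3, and 113 and 126.5 on day 5. F4/80 stood at 63 and 62, 59 and 61, and 64 and 66. CD64 stood at 16 and 16, 15 and 15, and 20 and 26.5. With 3 days an exact sign-flip permutation test could not give a p below 0.25, so none is given. Ly6G was part of the rule.

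Clusters of the 1550 Ly6G antibody cells, made without Siglecf, differed in their share of members, as a description. A cluster of 755 cells led by Tnf, Gpr84 and Icam1 held 69.2% of the members, and 54.7% of its cells were Siglecf-positive. In a cluster of 364 cells led by Retnlg, Lcn2 and Stfa2l1 13.7% were, and in one of 127 cells led by Ifit1, Rsad2 and Isg15 29.1% were. On day 3 alone these shares were 54.6%, 24.6% and 42.6%. A cluster of 183 cells led by Pf4, C1qa and Fabp5, with a median of 33991 UMIs and 7.10% of cells passing the RNA rule, had 29.5% Siglecf-positive cells. One of 100 cells with a median of 22633 UMIs was led by Plac8, Ms4a4c and Chil3. The monocyte genes Vcan, Ccr2 and Ly6c2 were also among its leading genes. In it 37.0% of cells were Siglecf-positive and 61.0% passed the RNA rule, so most of it stayed among the cells passing both rules.

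The same split was made in libraries that the rule did not use, where neutrophils were taken by the RNA rule. The CD45+ libraries were made after a step that lowered the number of neutrophils, and each was 1 library per time point. In the CD45+ libraries 2 of 441 neutrophils had a Siglecf UMI on day 1 (0.454%), 28 of 214 on day 3 (13.1%), 15 of 47 on day 5 (31.9%) and 14 of 27 on day 7 (51.9%, interval 31.9% to 71.3%). At steady state 2 of 7 did. Among other cells of these libraries the share was at most 1.11%. In day 3 of the CD45+ libraries Ptgs1 stood at 113 CPM in Siglecf-positive and 14.7 CPM in Siglecf-0 neutrophils and Retnlg at 1087 and 2339 CPM, the same directions as in the pool, whereas Asprv1 stood at 964 and 457 CPM. Ltc4s had only 3 UMIs in the Siglecf-positive cells there, and all 28 of these cells together held 105772 UMIs, so Ptgs1 also rested on few UMIs. Of genes higher in the members among cells passing both rules 11 of 15 were higher in this library (73.3%), beside 40.3% of 4147 genes tested. Of genes lower 79 of 121 were lower (65.3%), near the 59.7% over all genes tested.

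In the blood and heart pool Ly6G+ and Ly6G- cells had been brought to about equal numbers in the sort. The share of neutrophils with a Siglecf UMI was 4.69% to 8.25% in Hashtags 1 to 6 and 26.7% in Hashtag 7 (131 of 491 cells). Ptgs1 stood at 187 and 43.9 CPM, Ltc4s at 124 and 34.3 CPM and Retnlg at 2520 and 3286 CPM in Siglecf-positive and Siglecf-0 neutrophils of Hashtag 7. Of genes higher in the members among cells passing both rules 18 of 20 were higher in Hashtag 7 as well, and of genes lower 108 of 126 were lower, beside 3376 higher and 3674 lower of 7050 genes tested. In Hashtag 2 the same counts were 7 of 20 and 44 of 122, so the directions were not shared by every hashtag.

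This pool carried an antibody against Siglec-F itself. Its median count was higher in cells with Siglecf RNA in 7 of 7 hashtags, at 9 to 12 against 7 to 8 in Hashtags 1 to 6 and at 44 against 11 in Hashtag 7. In Hashtag 7 169 of 491 neutrophils had at least 30 Siglec-F antibody UMIs, a minimum chosen after the counts were seen, and 53.3% of those had Siglecf RNA (interval 45.4% to 61.0%) against 12.7% of the other 322. In Hashtags 1 to 6 10 to 26 cells reached this minimum, and the share with Siglecf RNA was 22.2% to 50.0% in 5 of these hashtags, above the other cells of the same hashtag, and 0 of 15 in Hashtag 4 (interval up to 21.8%) against 7.18% of its other cells. The antibody against CD54, the Icam1 product, stood at medians of 25 and 19 in Siglecf RNA-positive and Siglecf-0 cells of Hashtag 7, and at 15 to 18 and 15 to 17 in Hashtags 1 to 6. The antibody against CCR3, an eosinophil receptor, was higher in 0 of 7 hashtags, with medians of 14 to 15 in both states. At least 2 eosinophil genes were detected in 5 of 65 Siglecf-positive neutrophils of Hashtag 6 and 1 of 131 of Hashtag 7. The count was 0 in Hashtag 1 and 1 to 2 cells in each of Hashtags 2 to 5.

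**Figure D4:**
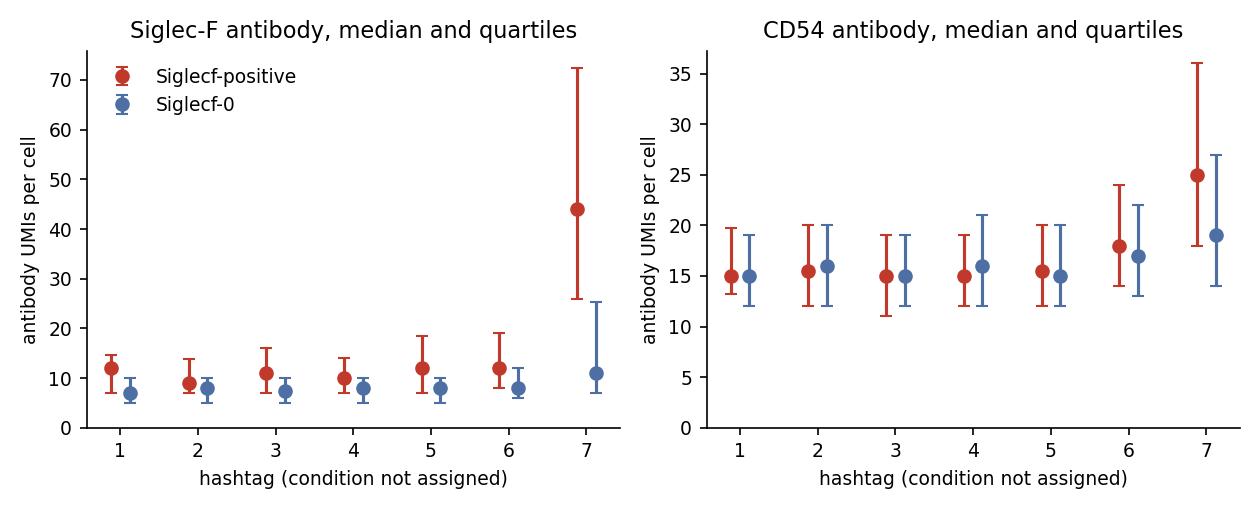
Antibody UMIs per cell (y axis; points are medians, bars quartiles) for Siglec-F (left) and CD54 (right) in Siglecf-positive and Siglecf-0 neutrophils of the 7 hashtags (x axis) of the blood and heart pool. Siglec-F medians in Hashtag 7 are 44 and 11, and CD54 medians there are 25 and 19.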

How the data were processed

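The authors deposited UMI counts per gene and barcode, and counts of hashtag and surface antibodies for both pools. Cell Ranger 3.0.2 is named in the headers of both pools, per the file headers, and the builds mm10 and GRCm38 in the submitters' processing notes; the cell caller is not given in the sources used here. From the counts, cells were filtered and assigned as in the report, and no doublet caller was run on the members beyond the single hashtag. UMIs were summed per day and state and fitted in R 4.3.3 with edgeR 4.0.16 (filterByExpr, TMM, glmQLFit, two-sided glmQLFTest, Benjamini-Hochberg, limma 3.58.1); DESeq2 1.42.0 was an alternative. Clusters used scanpy 1.11.5. The SE is the change over the root of F. CPM scale each gene to the total of its own sum.

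The pool held 107694968 RNA UMIs; the 4 sums tested held 1588723 to 5540397. On simulated sums with 200 genes changed by 1 log2, 67.7% of those tested were recovered in the fit of all Ly6G antibody cells (9579 genes) and 55.7% in the fit with the RNA rule (7504 genes). Of the simulated calls 4.29% and 6.09% were unchanged genes. Every simulated gene had the same spread, so these shares need not hold for the measured genes. Shared replicate numbers are the days, used as a block, and day pools are the only replicates. With 1 residual degree of freedom, edgeR p-values rest mainly on a spread estimated across genes. They hold little of each gene's own spread between 2 pools of mice. The weight of that shared estimate (prior degrees of freedom) was 7.25 among all Ly6G antibody cells and 325 with both rules. Named genes were the 12 highest and 12 lowest changes among genes past the threshold that moved the same way on days 3 and 5 at a mean of 50 CPM or more, and up to 4 per list; the rule was applied to each fit. Some genes called or measured are not reported here. Genes printed outside it were chosen after their values were seen. The members and lists were chosen with earlier results of these data known. Barcodes shared between libraries numbered at most 28, between the 2 pools.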

Additional observations from a re-analysis of the deposited data

Results flagged for a closer look

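Some named genes stood on the opposite side of 0 on day 1 than on days 3 and 5, which was not tested, since day 1 had 19 members in 1 pool of mice. The log2 values on day 1 were, among all Ly6G antibody cells, Bcl2a1a -1.61, Icam1 -0.019, Igfbp6 -0.26, Il23a -0.20, Siglece -0.47, Alox5 -0.41 and Tnfaip2 -0.47, each above 0 on days 3 and 5. In cells passing both rules they were Gpr84 -0.10, Bcl2a1d -0.68, Ebi3 -0.28, Cysltr1 -0.21, Ikbke -0.12, Hspa1b 0.14, C1qb 0.74 and Cd74 0.55, of which Hspa1b, C1qb and Cd74 were below 0 on days 3 and 5 and the others above 0. These values are scaled by the fit's normalization factors. For 4 of the 15 genes the day 1 CPM before that scaling lay on the same side as on days 3 and 5: Gpr84 (199 in members, 173 in Siglecf-0 cells), Icam1 (496 and 444), Cysltr1 (43.4 and 42.8) and Ikbke (118 and 105), so their side on day 1 depends on the scaling. For the other 11 it lay on the same side as the scaled value. Bcl2a1a was the gene farthest from 0, with 26 UMIs in the day 1 members and 699 in the Siglecf-0 cells.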

How the results depend on the processing

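The count of 245 genes among all Ly6G antibody cells moved under most settings. It was 99 with DESeq2, 892 without a filter on low counts, 103 with Siglecf-0 cells drawn to the members' UMI totals, 698 with a Siglecf minimum of 2 UMIs, 42 without cells with C1q UMIs, 88 with the RNA rule in place of the antibody and 391 with the CD45+ day 3 library added. Without the replicate block it was 0 (638 at an unadjusted p under 0.05). Leaving out 1 day with day 1 kept gave 22 to 75. Settings added after the data were seen gave 17 with day 1 included, 155 with both rules, and, with both rules, 62 with day 1 included, 67 at 2000 UMIs, 115 with total counts alone and 13 with DESeq2. The higher share of calls was 57.1% for all Ly6G antibody cells, 16.0% at 2000 UMIs and 22.3% with drawn cells. The fits at 2000 UMIs set the states again from the thinned Siglecf count, so some members counted as Siglecf-0 cells there. The cause of these moves in the counts was not tested. The share of Siglecf-positive cells with a minimum of 2 UMIs was 2.73%, 22.5% and 25.4% on days 1, 3 and 5; at 2000 UMIs it was 26.3% on day 3 and 22.3% on day 5; without cells with C1q UMIs it was 55.6% on day 5.

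Of the named genes' values under other settings 447 kept direction and call, 374 kept direction and lost the call, and 30 reversed. DESeq2 gave no adjusted p for 4 more values among all Ly6G antibody cells and 52 with both rules, which kept their direction and are in no count of calls. With both rules Lpl turned to 0.073, Vat1 to 0.27 and Cd33 to -0.051; with total counts alone as well Lpl was 0.19, Vat1 0.37, Stmn1 0.060 and Ctsl 0.054; with DESeq2 as well Lpl was 0.37, Vat1 0.32 and Cd33 -0.075. With both rules and day 1 Bcl2a1a was -0.019, Vat1 0.25, Cd33 -0.34, Birc3 -0.051 and Csf1 -0.23. With both rules at 2000 UMIs Ebi3 was -0.11 and Chil3 -0.71; at 2000 UMIs alone Chil3 was -0.65, and with the CD45+ day 3 library -0.33. Without cells with C1q UMIs Siglece was -0.13, Fgr -0.034, Cd33 -0.11, Csf1 -0.088 and Ctsl 0.34. With the RNA rule alone Cd33 was -0.13. Without day 3 (day 1 kept) Cd33 was -0.14 and Bcl2a1b -0.071, and without day 5 Bcl2a1a was -0.062.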
